A study of Mus musculus with 6 samples.

Results

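Collagen chain genes were taken as the protein-coding genes whose symbol reads Col, a number, the letter a and a number. This rule found 44 of the 51912 genes in the expression table. They fall into 11 fibrillar chains, 8 chains of basement membranes and their border zones, and 25 others. Values are TPM (a level scaled for transcript length and for the library total). Of the 44 genes, 20 reached 1 TPM or more in 3 or more of the 6 samples and were tested together with all 13325 genes that met this minimum.

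The samples were liver RNA of C57/B6 mice, 21 days old. The question was how exposure to the antimicrobial triclosan (TCS) through the mother changes liver gene expression in the young. The 3 TCS samples came from mice breastfed by mothers exposed to TCS at 120 ppm, and the 3 vehicle samples from mice on regular breastmilk, whose mothers received chow with DMSO and water alone. According to the methods, the mothers were fed TCS through pregnancy as well as lactation, so exposure before birth and through milk cannot be told apart, and each sample pooled RNA from 3 mice, 9 per group. The columns of the table give a group and a number from 1 to 3 that cannot be tied to single mice or litters, so p-values measure the spread between these pools.

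Collagens are triple helices of 3 chains, each made of repeats of glycine and 2 further residues, many of them proline. Fibrillar collagens (types I, III, V and XI among them) assemble into the banded fibers of connective tissue. Type IV collagen forms the sheet of basement membranes, and types XV and XVIII lie at their edge. The others include the beaded filaments of type VI and the fibril-associated types XII, XIV and XVI, which coat fibrils made by other chains. In the liver, fibrillar collagen is made mainly by stellate cells and portal fibroblasts, and its buildup is the hallmark of fibrosis. Hepatocytes are a known source of type XVIII, whose end fragment is endostatin.

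The libraries were of liver, with the hepatocyte transcript Alb between 87600 and 107000 TPM, but they were not alike in 3 further respects. Skeletal muscle transcripts (Ckm, Acta1 and Myh4 summed) stood at 137, 3.30 and 20.9 TPM in vehicle and at 38.7, 199.6 and 161 TPM in TCS. Xist, which female cells transcribe, ranged from 0.0144 TPM in TCS 1 to 98.7 TPM in TCS 2, whereas the methods name male neonates. The median gene lay 0.13 higher in TCS on the log2 scale, and scaling by the median of gene-wise ratios moved this to -0.0022. Changes are therefore also given relative to the median gene.

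Promoter sequence was available for 35 of the 44 collagen genes, 15 of them tested, as 38 windows from 250 bases before to 50 bases after a RefSeq start site (assembly GRCm38.p6). Col4a1 and Col4a2 are shown because they are transcribed away from each other out of one shared control region, and Col4a4 because it opens a similar pair with Col4a3. Col1a2 and Col3a1 stand for the fibrillar chains, and Col18a1 is the most abundant collagen RNA in these livers. TPM per gene do not show which of the 2 start sites of Col18a1 these livers used. The windows are Col4a1 at chr8:11312777-11313076 (minus strand), Col4a2 at chr8:11312555-11312854 (plus), Col4a4 at chr1:82586800-82587099 (minus), Col1a2 at chr6:4505368-4505667 (plus), Col3a1 at chr1:45311288-45311587 (plus) and, for the upstream of its 2 start sites, Col18a1 at chr10:77166481-77166780 (minus). Capitals mark CCAAT (or ATTGG on the other strand), GGGCGG (or CCGCCC) and TATAAA (or TTTATA).
Col4a1: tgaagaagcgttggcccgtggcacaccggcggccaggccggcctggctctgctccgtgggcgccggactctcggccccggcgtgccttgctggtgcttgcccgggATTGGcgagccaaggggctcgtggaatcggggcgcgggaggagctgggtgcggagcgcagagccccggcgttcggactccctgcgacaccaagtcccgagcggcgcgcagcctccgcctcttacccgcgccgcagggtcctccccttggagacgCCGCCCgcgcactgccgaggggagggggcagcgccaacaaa
Col4a2: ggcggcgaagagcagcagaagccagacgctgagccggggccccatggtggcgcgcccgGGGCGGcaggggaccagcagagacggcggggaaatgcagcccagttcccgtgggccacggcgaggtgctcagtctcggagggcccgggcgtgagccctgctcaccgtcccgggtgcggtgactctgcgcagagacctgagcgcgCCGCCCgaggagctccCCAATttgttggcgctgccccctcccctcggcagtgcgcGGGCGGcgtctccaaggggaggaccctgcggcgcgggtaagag
Col4a4: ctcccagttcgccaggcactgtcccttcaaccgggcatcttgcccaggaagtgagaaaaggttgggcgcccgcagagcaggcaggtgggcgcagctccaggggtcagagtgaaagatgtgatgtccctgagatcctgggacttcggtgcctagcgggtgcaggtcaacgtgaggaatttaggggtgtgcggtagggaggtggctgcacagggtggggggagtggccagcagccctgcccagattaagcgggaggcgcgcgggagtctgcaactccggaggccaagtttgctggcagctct
Col1a2: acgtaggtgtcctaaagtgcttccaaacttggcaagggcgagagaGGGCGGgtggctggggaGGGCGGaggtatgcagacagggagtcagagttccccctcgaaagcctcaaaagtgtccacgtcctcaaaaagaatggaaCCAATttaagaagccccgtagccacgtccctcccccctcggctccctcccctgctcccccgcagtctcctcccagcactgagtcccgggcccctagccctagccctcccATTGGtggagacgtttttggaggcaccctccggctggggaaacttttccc
Col3a1: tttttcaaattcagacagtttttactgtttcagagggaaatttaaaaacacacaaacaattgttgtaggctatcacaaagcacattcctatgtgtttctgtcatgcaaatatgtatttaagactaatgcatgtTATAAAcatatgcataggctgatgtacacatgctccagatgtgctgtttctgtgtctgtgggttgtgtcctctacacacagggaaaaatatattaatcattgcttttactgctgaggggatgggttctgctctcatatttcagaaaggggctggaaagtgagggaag
Col18a1: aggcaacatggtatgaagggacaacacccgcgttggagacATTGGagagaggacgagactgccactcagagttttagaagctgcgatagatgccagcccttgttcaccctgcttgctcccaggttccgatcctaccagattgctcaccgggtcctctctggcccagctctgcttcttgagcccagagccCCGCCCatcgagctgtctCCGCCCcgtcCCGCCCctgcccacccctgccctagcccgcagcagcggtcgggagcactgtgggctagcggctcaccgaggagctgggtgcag

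The start sites of Col4a1 and Col4a2 lay 21 bases apart, and their windows shared 78 bases, each reading as the reverse complement of the other there. GGGCGG was found in 23 of the 38 collagen windows, beside 35.66% of all 32851 windows. CCAAT was in 13 of 38, beside 37.41% of all windows, and TATAAA in 5 of 38, beside 13.62%. The Col3a1 window held the TATAAA letters and neither of the other motifs, whereas the Col1a2 window held CCAAT on both strands and GGGCGG on its own strand, and no TATAAA. The Col4a4 window held none of the 3. The same was true of the window at the downstream start site of Col18a1, which is not printed here. Median GC content was 59.8% in the collagen windows and 52.7% in all windows. The Col1a2 window follows the RefSeq start and lies within the longer GENCODE M21 gene (chromosome 6, 4504814 to 4541544).

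The liver carried a small amount of collagen RNA, dominated by a single basement-membrane gene. All 44 genes together summed to 499.8, 497 and 485 TPM in vehicle and to 485, 535 and 565 TPM in TCS, between 0.0484% and 0.0565% of all TPM. The groups overlapped in this total. Col18a1 alone supplied 51.9% to 52.8% of collagen TPM in vehicle and 43.4% to 46.6% in TCS, and the 6 most abundant genes supplied 86.0% to 88.4% in every sample.

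With Col18a1 set aside, a choice made after its values were seen, the remaining 43 genes summed to 236, 235 and 233 TPM in vehicle and to 259, 303 and 316 TPM in TCS. No TCS sample was then as low as any vehicle sample, and the ratio of the means was 1.25. Fibrillar chains summed to 115, 107 and 115 TPM in vehicle and 125, 151 and 151 TPM in TCS. All basement-membrane chains summed to 332, 332 and 314 TPM in vehicle and 297, 317 and 345 TPM in TCS, which overlapped, with a ratio of the means of 0.98. Without Col18a1 they summed to 67.7, 69.6 and 62.3 TPM in vehicle and 70.7, 84.9 and 95.7 TPM in TCS. TCS 1 was the lowest TCS sample in each of these sums, as in the total.

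**Figure D1:**
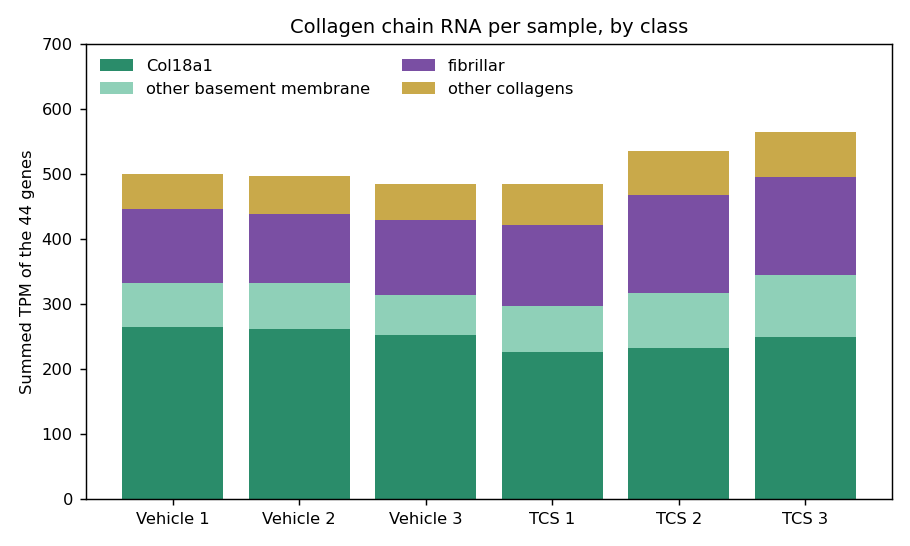
Stacked bars give the summed TPM of the 44 collagen chain genes in each of the 6 samples (x axis, samples; y axis, TPM from 0), split into Col18a1, the other basement-membrane chains, the fibrillar chains and the other collagens. Col18a1 fills 51.9% to 52.8% of the bar in vehicle and 43.4% to 46.6% in TCS, while the rest of the bar sums to 233 to 236 TPM in vehicle and 259 to 316 TPM in TCS.

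No collagen chain passed the test over all genes. Under limma's moderated test on log2(TPM + 1), 0 of the 20 collagens reached an adjusted p under 0.05 in either direction, where 0.173% of all genes tested did, 11 higher (0.0826%) and 12 lower (0.0901%). The smallest adjusted p of a collagen was 0.117, for Col3a1. At an unadjusted p under 0.05, 9 collagens (45%) were higher and 1 (5%) lower, beside 19.5% and 3.5% of all genes. In 11 collagens (55%) the lowest TCS sample lay above the highest vehicle sample, and in 2 all lay (10%) below, beside 25.1% and 4.61% of all genes. Fewer cells of a collagen-making type and less RNA per cell cannot be told apart in such bulk samples, nor can more cells and more RNA.

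These counts moved with the scaling of the libraries. A positive difference was seen in 16 of 20 collagens (80%), beside 74.8% of all genes, and, with the minimum on TPM removed, in 28 of all 44, with 16 negative. In the main comparison 15 of 20 lay above the median gene. The median log2 fold change of the collagens was 0.30, which is 0.17 above that of all genes. After scaling by the median of ratios, 4 collagens were higher and 2 lower at an unadjusted p under 0.05, beside 8.28% and 8.76% of all genes, and 3 lay wholly above and 2 wholly below, beside 11.7% and 12.4%. The median then lay 0.18 above that of all genes. Single pools also weighed on the count of 9: it was 3 without Vehicle 1 (beside 13% of all genes), 8 without Vehicle 2 (15.6%), 3 without Vehicle 3 (19.3%), 11 without TCS 1 (21.8%), 1 without TCS 2 (12.3%) and 1 without TCS 3 (11.9%). Of the 20 collagens, the share was thus below that of all genes without Vehicle 3, TCS 2 or TCS 3.

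By class, the fibrillar chains had 7 of 11 members tested, with a median log2 fold change of 0.29 (0.16 above all genes), 7 positive and 3 (42.9%) higher at an unadjusted p under 0.05. The basement-membrane chains had 6 of 8 tested and were split, with 3 positive and 3 negative, 3 higher (50%) and 1 lower (16.7%) at that p, and a median of 0.16 (0.03 above all genes). Among the other collagens 7 of 25 were tested, 6 of them positive and 3 (42.9%) higher at that p, with a median of 0.34 (0.20 above all genes). Of all genes 19.5% were higher and 3.5% lower at that p, and the 3 classes were not tested against each other.

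**Figure D2:**
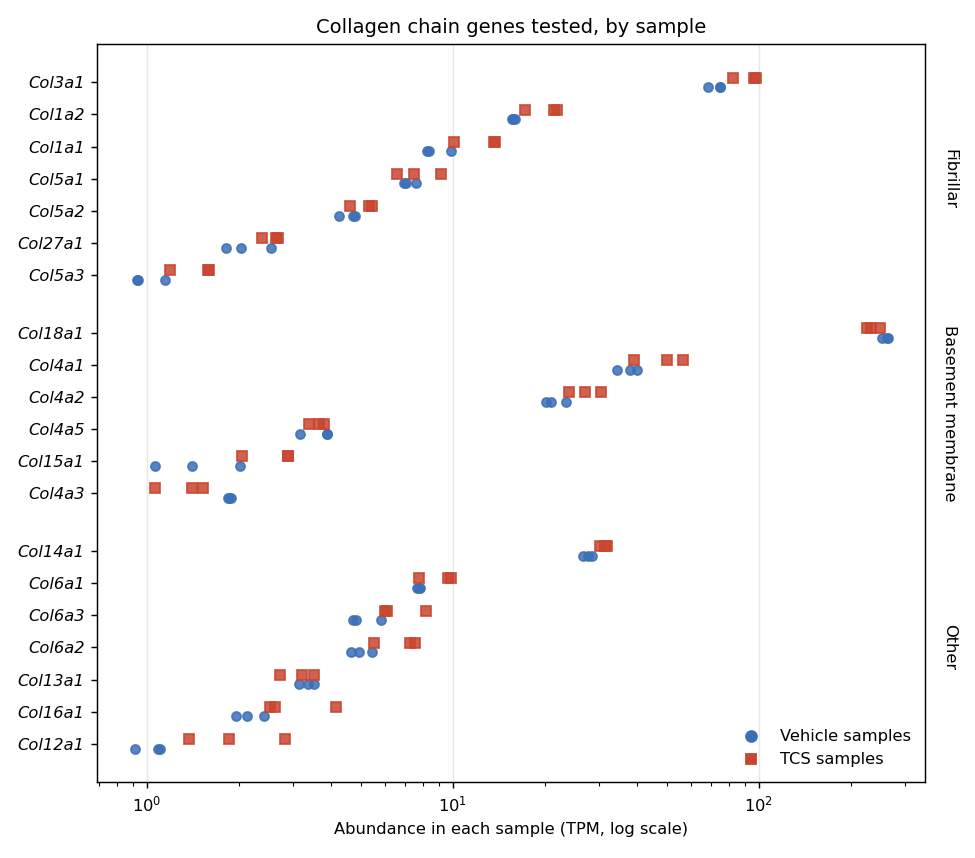
Each of the 20 collagen chain genes tested is a line of points, with the TPM of the 3 vehicle samples (circles) and the 3 TCS samples (squares) on a log x axis, grouped by class and ordered by mean level. The squares lie wholly right of the circles in 11 genes and wholly left in Col18a1 and Col4a3.

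Type I and type III chains made up the bulk of fibrillar collagen RNA. Col3a1, the only chain of type III, stood at 74.7, 68.2 and 74.5 TPM in vehicle and at 82.2, 98.0 and 96.6 TPM in TCS. All TCS samples were above all vehicle samples, with TCS 1 nearest to them. Its log2 fold change was 0.34 ± 0.09 (SE; limma adjusted p = 0.117, unadjusted p = 0.0077), or 0.19 after median-of-ratios scaling.

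Col1a1, which gives 2 of the 3 chains of a type I molecule, stood at 9.85, 8.21 and 8.38 TPM in vehicle and at 10.1, 13.7 and 13.6 TPM in TCS. The groups did not overlap, but TCS 1 lay close to Vehicle 1. The log2 fold change was 0.45 ± 0.14 (SE; limma adjusted p = 0.143), and 0.31 after median-of-ratios scaling. For Col1a2, which gives the remaining chain of type I, levels were 15.6, 15.7 and 16.0 TPM in vehicle and 17.2, 21.4 and 21.9 TPM in TCS. Again all TCS samples were higher, and the log2 fold change was 0.33 ± 0.10 (SE; limma adjusted p = 0.15), and 0.18 after that scaling. Col1a1, Col12a1 and Col15a1 are genes that the study itself showed from these samples, so their direction here is not independent evidence. The study's legend for its fibrosis genes gives an adjusted p under 0.05. In the test used here these 3 did not reach it (limma adjusted p = 0.143, 0.174 and 0.165). The study counted far more genes at that threshold than the 11 higher and 12 lower called here. The adjusted p-values of the study and of the test here are therefore not directly comparable. The study also reported increased Sirius red staining, which RNA levels do not measure.

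Type V chains join type I fibrils and limit their width. Col5a1 was at 6.93, 7.01 and 7.56 TPM in vehicle and 6.55, 7.49 and 9.13 TPM in TCS, and Col5a2 was at 4.26, 4.72 and 4.78 TPM in vehicle and 4.61, 5.45 and 5.33 TPM in TCS. Both genes overlapped between groups. Col5a1 had a log2 fold change of 0.09 (95% interval -0.21 to 0.38), which turned to -0.05 after median-of-ratios scaling and -0.03 without TCS 3. For Col5a2 it was 0.13 (-0.11 to 0.37).

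Col5a3, a less common type V chain, had higher values in every TCS sample, 1.19, 1.59 and 1.58 TPM against 1.15, 0.934 and 0.929 TPM, with a log2 fold change of 0.29 (95% interval -0.02 to 0.60). Col27a1 ranged from 1.82 to 2.55 TPM in vehicle and from 2.38 to 2.68 TPM in TCS, and the groups overlapped. The cartilage chains Col2a1, Col11a1 and Col11a2 and the minor fibrillar chain Col24a1 were below the minimum for testing, at no more than 0.674 TPM in any sample.

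The order of the fibrillar chains among the pools ran alongside the muscle transcripts in part. Within vehicle, Vehicle 1 had the most muscle RNA (137 TPM) and the highest Col1a1 (9.85 TPM), and within TCS, TCS 1 had the least of both (38.7 and 10.1 TPM). Vehicle 1 had more muscle RNA than TCS 1 and less Col1a1, Col1a2 and Col3a1. With the muscle sum as a covariate, chosen after seeing the data, the log2 fold change was 0.28 for Col1a1 (limma adjusted p = 0.402), 0.27 for Col1a2 (adjusted p = 0.413) and 0.25 for Col3a1 (adjusted p = 0.351). In that fit 2 collagens, Col3a1 and Col15a1, were higher at an unadjusted p under 0.05, beside 11% of all genes. With the Xist level as a covariate, 8 collagens were higher and 1 lower, beside 21.4% and 3.63% of all genes, and Col3a1 was at 0.36. Cartilage markers were near 0: Acan and Matn1 did not exceed 0.0305 TPM and Comp did not exceed 0.124 TPM. The fat markers Adipoq and Plin1, both below the minimum for testing, were highest in TCS 2 (0.512 and 0.244 TPM) and TCS 3 (0.793 and 0.393 TPM). In the other samples they did not exceed 0.329 and 0.149 TPM.

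**Figure D3:**
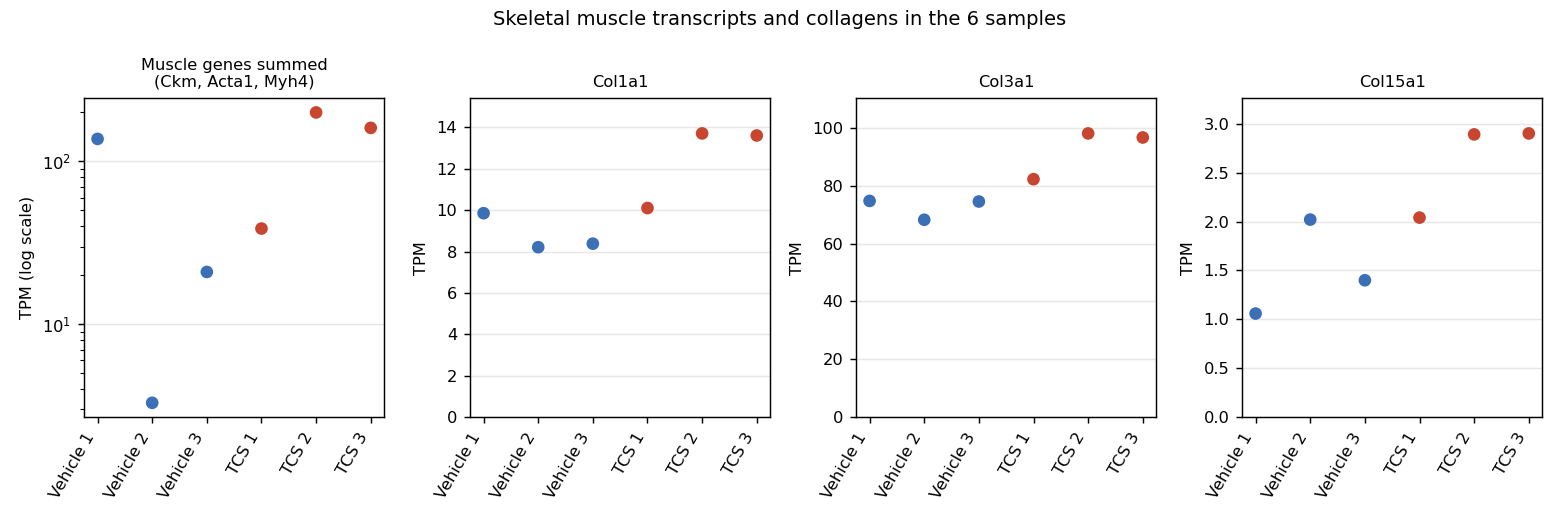
For the 6 samples (x axis), the first panel gives the summed TPM of Ckm, Acta1 and Myh4 on a log scale, and the others the TPM of Col1a1, Col3a1 and Col15a1 from 0, with vehicle in blue and TCS in red. Vehicle 1 reached 137 TPM of muscle RNA while its Col1a1 (9.85 TPM), Col3a1 (74.7 TPM) and Col15a1 (1.06 TPM) stayed below every TCS sample. Vehicle 2, with the least muscle RNA (3.30 TPM), had the lowest Col1a1 (8.21 TPM) and Col3a1 (68.2 TPM). TCS 2 and TCS 3, with the most, had the highest. Whether muscle RNA accounts for the collagen values was not tested.

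Col4a1 and Col4a2, whose chains join in the type IV molecule found in nearly every basement membrane, were both higher on average in TCS. Col4a1 stood at 40.0, 37.8 and 34.4 TPM in vehicle and 39.0, 50 and 56.6 TPM in TCS. The groups overlapped, since TCS 1 was below Vehicle 1. Its log2 fold change was 0.35 ± 0.14 (SE; limma adjusted p = 0.209). Col4a2 stood at 20.9, 23.4 and 20.1 TPM in vehicle and 23.9, 27.0 and 30.4 TPM in TCS, with no overlap, and had a log2 fold change of 0.32 ± 0.11 (SE; limma adjusted p = 0.166). Both genes had their highest level in TCS 3. After median-of-ratios scaling the values were 0.20 and 0.17.

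Col4a3 and Col4a4, chains of the type IV molecule known from the kidney filter and lung, pointed the other way. The genes lie head to head on chromosome 1, 71 bases apart. Col4a3 was at 1.89, 1.86 and 1.84 TPM in vehicle and at 1.52, 1.06 and 1.40 TPM in TCS. Every TCS sample was lower, and the vehicle samples were nearly equal. The log2 fold change was -0.30 ± 0.12 (SE; limma adjusted p = 0.208), and -0.40 after median-of-ratios scaling. Col4a4, below the minimum for testing, was at 0.581, 0.548 and 0.566 TPM in vehicle and at 0.436, 0.387 and 0.441 TPM in TCS, again without overlap.

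C430014B12Rik, transcribed against Col4a3 over 30132 bases, was at 0.636 to 0.847 TPM in vehicle and 0.794 to 1.26 TPM in TCS. The methods speak of strand-specific counting but name a TruSeq RNA kit that is not sold as a stranded one, and whether strand was used for these TPM is not given. If it was not, reads of both genes cannot be told apart where exons overlap. Set against Col4a1 in the same sample, a ratio chosen after the values were seen, Col4a3 came to 4.73%, 4.92% and 5.35% in vehicle and to 3.90%, 2.12% and 2.47% in TCS. Col4a4 as a share of Col4a3 was 29.5% to 30.8% in vehicle and 28.7% to 36.5% in TCS, with overlap.

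The last pair, Col4a5 and Col4a6 on the X chromosome, gives chains of other type IV molecules. Col4a5 was at 3.16, 3.87 and 3.88 TPM in vehicle and 3.66, 3.39 and 3.80 TPM in TCS. The groups overlapped, and the log2 fold change was -0.0033 (95% interval -0.26 to 0.26). Col4a6 was at no more than 0.171 TPM, although its 3 TCS values (0.136 to 0.171 TPM) lay above its vehicle values (0.0612 to 0.113 TPM).

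**Figure D4:**
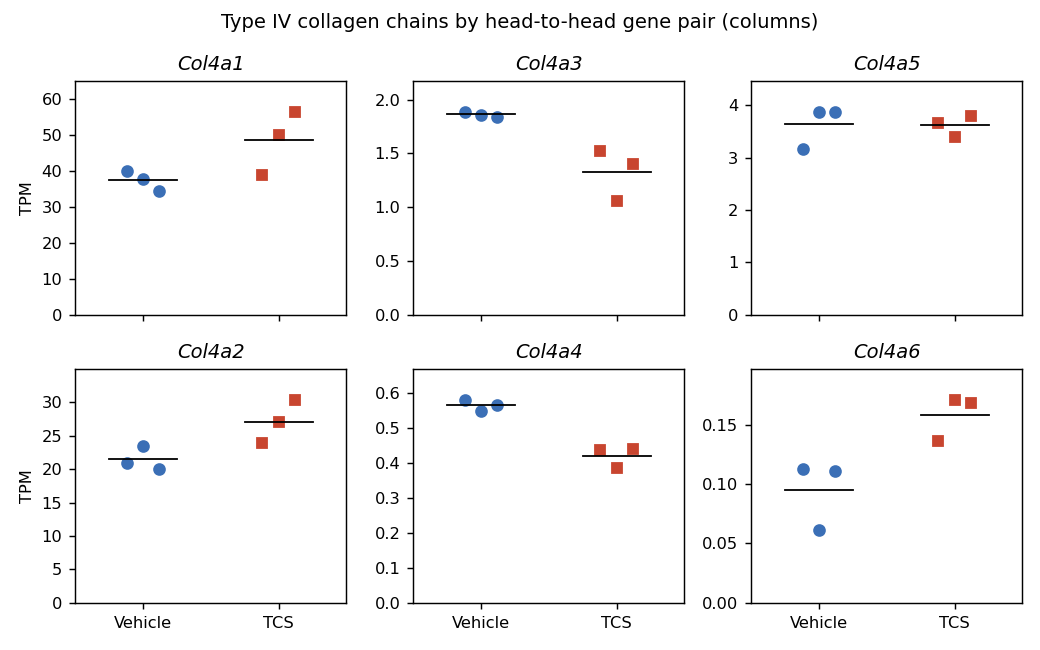
Each panel gives the TPM of a type IV chain gene (y axis from 0, a scale of its own) in the 3 vehicle (blue circles) and 3 TCS (red squares) samples, with lines at the group means and the head-to-head partners in 1 column. Means of Col4a1 and Col4a2 were higher in TCS (48.5 against 37.4 TPM and 27.1 against 21.5 TPM), those of Col4a3 and Col4a4 lower (1.33 against 1.86 TPM and 0.421 against 0.565 TPM), and Col4a5 was level (3.62 against 3.64 TPM).

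Col18a1 and Col15a1, related collagens of the basement-membrane zone that carry endostatin-like ends, had differences of opposite sign. Col18a1 was at 264, 262 and 252 TPM in vehicle and at 226, 232 and 249 TPM in TCS. All TCS values were lower, but TCS 3 lay next to Vehicle 3. The log2 fold change was -0.14 ± 0.06 (SE; limma adjusted p = 0.246), and -0.29 after median-of-ratios scaling (adjusted p = 0.117).

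The hepatocyte transcript Alb was at 95700, 107000 and 103000 TPM in vehicle and 89900, 89700 and 87600 TPM in TCS. As a share of Alb, chosen after the values were seen, Col18a1 was 0.245% to 0.276% in vehicle and 0.251% to 0.284% in TCS, and the groups overlapped. Slc19a1, on the other strand over 8825 bases of Col18a1, was at 3.55 to 5.57 TPM in vehicle and 3.04 to 3.70 TPM in TCS, far below Col18a1 itself.

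Col15a1 was at 1.06, 2.02 and 1.40 TPM in vehicle and at 2.04, 2.89 and 2.90 TPM in TCS. TCS 1 and Vehicle 2 were almost level, and no sample crossed between groups. It had a log2 fold change of 0.54 ± 0.18 (SE; limma adjusted p = 0.165), of 0.44 after median-of-ratios scaling, and of 0.66 with the muscle covariate (adjusted p = 0.324).

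**Figure D5:**
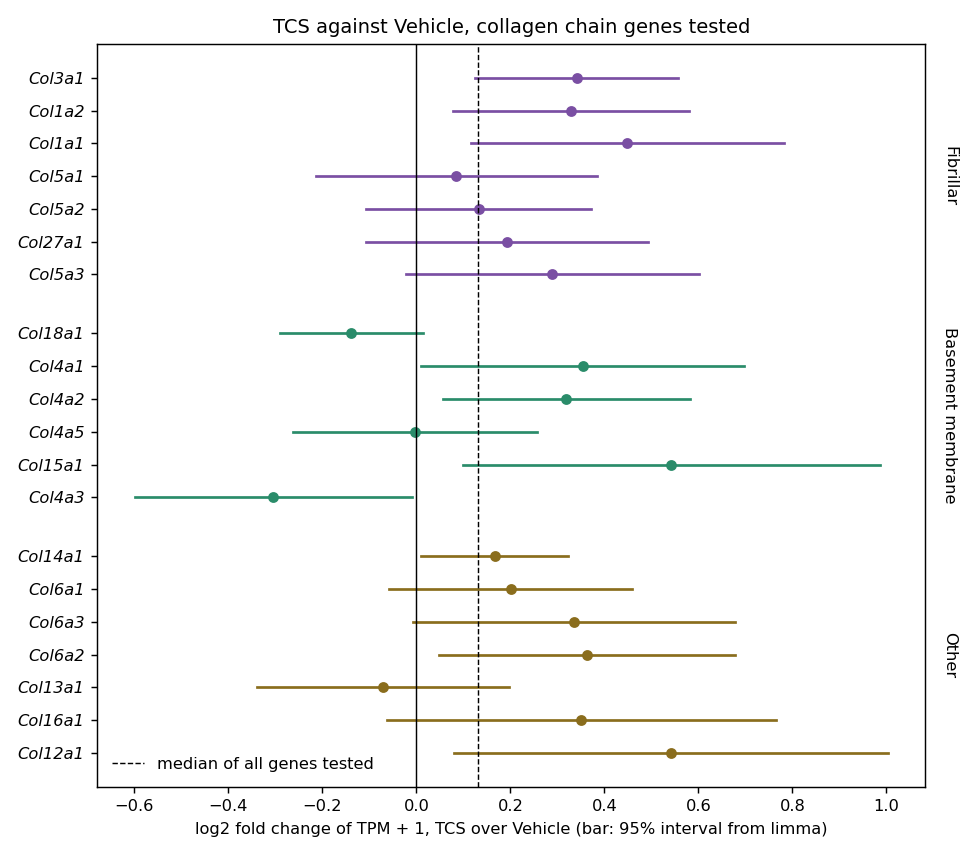
Points give the log2 fold change of TPM + 1, TCS over vehicle, for the 20 collagen chain genes tested, and bars its 95% interval from limma, with a solid line at 0 and a dashed line at the median of all genes (0.13). Of these intervals, 10 leave out 0 with no adjustment for the number of genes, 9 to the right of it and Col4a3 to the left.

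Among the remaining collagens, type VI and the fibril-associated types carried most of the RNA. Col14a1, a fibril-associated chain of the fibril surface, was at 26.7, 28.6 and 27.6 TPM in vehicle and 30.2, 31.8 and 31.4 TPM in TCS. The groups were tight and did not overlap. The log2 fold change of 0.17 ± 0.07 (SE; limma adjusted p = 0.201) was close to that of the median gene, and came to 0.02 after median-of-ratios scaling.

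Col12a1, the fibril-associated chain known from tendon and stressed tissue, was at 0.913, 1.09 and 1.1 TPM in vehicle and 1.37, 1.85 and 2.83 TPM in TCS. Every TCS sample was higher, TCS 3 most of all. The ratio of the means was 1.95 and the log2 fold change on the TPM + 1 scale 0.54 ± 0.19 (SE; limma adjusted p = 0.174), which understates the change of a gene this low. Col16a1 was at 1.96, 2.13 and 2.41 TPM in vehicle and 4.14, 2.62 and 2.52 TPM in TCS. Here TCS 1 stood apart as the highest, and the log2 fold change of 0.35 (95% interval -0.06 to 0.76) became 0.18 without it.

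Type VI filaments are built from the chains of Col6a1, Col6a2 and one further chain, most often that of Col6a3. Col6a1 was at 7.81, 7.77 and 7.64 TPM in vehicle and 7.73, 9.88 and 9.67 TPM in TCS, and TCS 1 lay within the vehicle range. Col6a2 was at 4.92, 5.45 and 4.66 TPM in vehicle and 5.52, 7.25 and 7.55 TPM in TCS, without overlap. Col6a3 was at 4.70, 5.83 and 4.83 TPM in vehicle and 5.99, 6.09 and 8.2 TPM in TCS, also without overlap. The log2 fold changes were 0.20 ± 0.11 for Col6a1, 0.36 ± 0.13 for Col6a2 and 0.34 ± 0.14 for Col6a3 (SE; limma adjusted p = 0.300, 0.177 and 0.223).

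Col13a1, a membrane-spanning collagen, was at 3.15 to 3.52 TPM in vehicle and 2.72 to 3.51 TPM in TCS, with overlap. The 24 genes not tested did not exceed 1.12 TPM in any sample, 16 had a mean of at least 0.1 TPM and 4 were listed at 0 in 1 or more samples. They summed to 4.32 to 5.35 TPM in vehicle and 5.44 to 5.52 TPM in TCS. The groups did not overlap in 8 of them, named here after their values were seen. Col8a1, Col6a6, Col23a1, Col4a6 and Col2a1 were higher in every TCS sample and Col20a1, Col4a4 and Col7a1 lower, 5 and 3 of the 24. Over all 44 collagens, 16 lay wholly above and 5 wholly below, beside 14.9% and 3.7% of the 28916 genes that remain with no minimum on TPM. Col7a1, which anchors skin to its basement membrane, was at 0.308 to 0.549 TPM in vehicle and 0.129 to 0.241 TPM in TCS, and Col8a1, a short-chain collagen of vessels, at 0.209 to 0.374 TPM and 0.467 to 0.659 TPM.

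The proportions of partner chains were compared in the same samples. Of 6 ratios between chains of a shared molecule or tissue fibril, none differed past the threshold in an exact two-sided permutation test, which with 3 samples per group cannot go below p = 0.1. The ratio of Col1a1 to Col1a2 was 0.559 ± 0.062 (SD, n = 3) in vehicle and 0.616 ± 0.027 in TCS (exact p = 0.3, adjusted over the 6 ratios 0.45). Col4a1 to Col4a2 was 1.75 ± 0.15 and 1.78 ± 0.13 (exact p = 0.9, adjusted 0.9). Col3a1 to Col1a1 was 8.26 ± 0.65 and 7.46 ± 0.58 (exact p = 0.2, adjusted 0.45).

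The ratio of Col6a1 to Col6a2 was the only one of the 6 whose groups did not overlap. It was 1.59, 1.43 and 1.64 in vehicle and 1.40, 1.36 and 1.28 in TCS (exact p = 0.1, the smallest possible, adjusted 0.45). Col6a3 to Col6a1 was 0.661 ± 0.078 and 0.746 ± 0.118 (SD, n = 3; exact p = 0.3, adjusted 0.45), and Col5a1 to Col5a2 was 1.56 ± 0.07 and 1.5 ± 0.18 (exact p = 0.7, adjusted 0.84). Such ratios do not depend on how a library is scaled.

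The enzymes and chaperones that make collagen lay near the median gene. Of 21 genes for chain modification and folding, 18 were tested and 0 passed the adjusted threshold. At an unadjusted p under 0.05, 2 were higher and 0 lower, beside 19.5% and 3.5% of all genes. The median of the 18 lay 0.03 above that of all genes. P4hb, a subunit of prolyl hydroxylase, was at 563, 502 and 545 TPM in vehicle and 623, 622 and 603 TPM in TCS, above in every sample (log2 fold change 0.20, limma adjusted p = 0.157). Ppib, a proline isomerase of the endoplasmic reticulum, ranged from 466 to 547 TPM in vehicle and from 466 to 525 TPM in TCS.

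Of 14 genes for processing and cross-linking, 7 were tested, with a median 0.03 below that of all genes (-0.03). At an unadjusted p under 0.05, 1 was higher and 0 lower, beside 19.5% and 3.5% of all genes. Tgm2, a transglutaminase that cross-links matrix proteins, was at 46.7, 31.2 and 53.3 TPM in vehicle and 64.5, 65.7 and 75.3 TPM in TCS, without overlap (log2 fold change 0.67, limma adjusted p = 0.133). Bmp1, which trims the ends of procollagen, was at 32.5 to 34.9 TPM in vehicle and 33.9 to 37.9 TPM in TCS. Of 19 receptors and breakdown enzymes 10 were tested. Of these, 0 had an unadjusted p under 0.05, where 19.5% of all genes were higher and 3.5% lower. The integrin subunit Itgb1 was at 70.3 to 78.1 TPM in vehicle and 74.5 to 85.6 TPM in TCS. The collagenase Mmp14 was at 20.4 to 22.9 TPM in vehicle and 23.3 to 27.9 TPM in TCS.

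All 12 proteins that bind collagen in the matrix were tested, with a median at -0.07 against all genes. Of these, 1 was higher and 1 lower at an unadjusted p under 0.05, beside 19.5% and 3.5% of all genes. Fmod was the higher gene, without overlap (log2 fold change 0.38, limma adjusted p = 0.193). Dcn was the lower gene, also without overlap (log2 fold change -0.16, limma adjusted p = 0.200). Fn1, fibronectin, was not at that p. Its levels were 620, 514 and 507 TPM in vehicle and 496, 432 and 495 TPM in TCS. Every TCS sample was lower (log2 fold change -0.20, limma adjusted p = 0.286). Sparc ranged from 195 to 201 TPM in vehicle and 190 to 218 TPM in TCS. Of 16 genes of TGF-beta and PDGF control of collagen, 13 were tested, and the median lay 0.01 above all genes. At an unadjusted p under 0.05, 3 were higher and 1 lower, beside 19.5% and 3.5% of all genes. Of the 13, 3 lay wholly above and 1 wholly below, beside 25.1% and 4.61% of all genes. The 3 that were higher, all without overlap, were the signal carrier Smad2 (7.35 to 8.02 TPM in vehicle and 8.97 to 9.96 TPM in TCS), the receptor Tgfbr2 (6.27 to 6.96 TPM and 7.92 to 8.12 TPM) and Pdgfrb, with log2 fold changes of 0.26, 0.22 and 0.34 (limma adjusted p = 0.146, 0.181 and 0.158). The gene that was lower was Ccn2, a matrix protein that TGF-beta induces, at 9.88, 11 and 9.88 TPM in vehicle and 6.75, 8.04 and 6.55 TPM in TCS. The groups did not overlap, and the log2 fold change was -0.48 ± 0.10 (SE; limma adjusted p = 0.0973). Smad4 was at 11.8 to 13.3 TPM in vehicle and 10.8 to 14.2 TPM in TCS.

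Markers of the cells that could supply collagen RNA gave no single picture, and 0 genes of any list passed the adjusted threshold. The 13 stellate cell markers summed to 405 to 437 TPM in vehicle and 389 to 413 TPM in TCS. Of the 12 tested, 2 were higher and 1 lower at an unadjusted p under 0.05, beside 19.5% and 3.5% of all genes. Of the same 12, 2 lay wholly above and 3 wholly below, beside 25.1% and 4.61% of all genes. Their median was at -0.10 against all genes. Dcn, decorin, was at 198, 180 and 193 TPM in vehicle and 170, 168 and 173 TPM in TCS, lower in every sample (log2 fold change -0.16, limma adjusted p = 0.200). Ecm1 was at 134 to 137 TPM in vehicle and 112 to 133 TPM in TCS. The 2 that were higher were Nes, at 1.19 to 1.77 TPM in vehicle and 2.21 to 2.44 TPM in TCS, and the PDGF receptor gene Pdgfrb, at 2.69 to 2.71 TPM and 3.15 to 4.13 TPM, both without overlap (log2 fold changes 0.44 and 0.34, limma adjusted p = 0.132 and 0.158).

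The 9 portal fibroblast markers summed to 28.1 to 35.6 TPM in vehicle and 30.6 to 41.6 TPM in TCS. Of these, 7 were tested and 0 had an unadjusted p under 0.05, where 19.5% of all genes were higher and 3.5% lower. Eln and Dpt overlapped between groups. Smooth muscle and myofibroblast markers, 5 of 6 tested, summed to 17.7 to 29.0 TPM in vehicle and 28.9 to 33.6 TPM in TCS. Their median lay 0.21 above all genes. At an unadjusted p under 0.05, 1 was higher and 0 lower, beside 19.5% and 3.5% of all genes. Of the 5, 2 lay wholly above and 0 wholly below, beside 25.1% and 4.61% of all genes. Acta2, the actin of smooth muscle and activated stellate cells, was at 7.13, 4.73 and 9.22 TPM in vehicle and 9.86, 10.3 and 10.8 TPM in TCS, without overlap (log2 fold change 0.53, limma adjusted p = 0.196), and Tagln overlapped. The 6 mesothelial markers, 3 of them tested, summed to 4.71 to 5.34 TPM in vehicle and 5.88 to 9.06 TPM in TCS. Of the 3, 1 was higher and 0 lower at an unadjusted p under 0.05, beside 19.5% and 3.5% of all genes. Among them Gpm6a was at 0.768 to 1.06 TPM in vehicle and 1.47 to 2 TPM in TCS, and Msln overlapped. The part of these cell types in the collagen values was not tested.

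Sinusoidal endothelial markers, 10 of 10 tested, summed to 258 to 293 TPM in vehicle and 258 to 279 TPM in TCS. At an unadjusted p under 0.05, 1 was higher and 1 lower, beside 19.5% and 3.5% of all genes. The gene that was lower was Lyve1, at 24.9 to 29.3 TPM in vehicle and 20.8 to 23.6 TPM in TCS. The gene that was higher was Kdr, a receptor for VEGF, at 15.4 to 19.2 TPM in vehicle and 21.1 to 23.1 TPM in TCS. Clec4g was not at that p but was lower in every TCS sample (61.1 to 63.1 TPM against 63.9 to 70.9 TPM), and Fcgr2b overlapped. Kupffer cell markers, 6 of 6 tested, summed to 225 to 270.1 TPM and 229.9 to 291 TPM, and cholangiocyte markers, 3 of 7 tested, to 56.6 to 79.1 TPM and 67.9 to 70.0 TPM. Neither list had a gene at an unadjusted p under 0.05 (0 of 6 and 0 of 3), and Clec4f, Cd5l, Spp1 and Krt19 overlapped between groups. The hepatocyte markers, 5 of 6 matched and tested, had a median at -0.32 against all genes. At an unadjusted p under 0.05, 2 were lower and 0 higher, beside 3.5% and 19.5% of all genes. Apoa1 was at 13400 to 15600 TPM in vehicle and 10400 to 12300 TPM in TCS.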

How the data were processed

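Liver RNA was sequenced in 6 pooled samples, 3 vehicle and 3 TCS, grouped by the treatment in the labels. According to the methods and processing notes, libraries came from a TruSeq RNA kit, bases were called by bcl2fastq (2.17.1.14), unique alignments to mm10 were made by STAR (2.2.0c), and HOMER counted reads by strand and gave FPKM. The deposited values differ from that description, being TPM per Ensembl gene to 3 significant digits, and the step that made TPM is not given in the sources used here. Without read counts the depth behind a value is unknown and counting error was not estimated. A second deposited table holds the authors' own comparison, log2 fold changes with p-values, and was not used.

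Genes reaching 1 TPM in 3 or more samples were tested on log2(TPM + 1) in limma 3.58.1 (R 4.3.3), with a variance trend and Benjamini-Hochberg adjustment over all 13325 genes, at 0.05. Fold changes on this scale understate the change of low genes. Chain ratios were compared by exact permutation tests. The test was tried on simulated data first. Positions came from GENCODE M21 and promoters from RefSeq. The members, the gene lists and the alternatives planned were chosen with earlier results of these data known, and the covariates for Xist and muscle after seeing the data. Values per sample are given for collagens with a mean of at least 10 TPM or an unadjusted p under 0.05. They are also given for collagens drawn by the study or in a chain pair. The 2 most abundant genes of each list are named, some with overlap, a range or a sum alone. Nes, Pdgfrb, Kdr, Lyve1, Smad2, Tgfbr2, Fmod, Plin1, Col7a1 and Col8a1 were named after their values were seen. Dcn, Dpt, Fbln2 and Pdgfrb stand in more than 1 list.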

Additional observations from a re-analysis of the deposited data

How the results depend on the processing

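No collagen was called under any alternative except sample weights, with which Col1a1, Col1a2, Col3a1 and Col15a1 were higher (4 genes; limma adjusted p = 0.0490, 0.0455, 0.0371 and 0.0444; log2 fold changes 0.51, 0.39, 0.39 and 0.69) among 1006 genes higher and 234 lower. Against 11 higher and 12 lower in all, there were 0 and 0 with no minimum on TPM (3123 and 714 at an unadjusted p under 0.05), 35 and 24 with a minimum of 5 TPM, 73 and 42 with protein-coding genes alone, 10 and 19 with median-of-ratios scaling, and 8 and 20 with quantile normalization. With covariates chosen after seeing the data there were 1 and 3 (Xist) and 0 and 0 (muscle; 1471 and 381 at an unadjusted p under 0.05). Leaving out 1 sample gave 0 to 22 higher and 0 to 13 lower, the 13 being without Vehicle 3. The other fits gave 1 and 3 without Vehicle 1 and 22 and 7 without Vehicle 2. They gave 1 and 3 without TCS 1, 0 and 1 without TCS 2, and 0 and 0 without TCS 3.

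The median of the collagens, 0.17 above that of all genes, was 0.039 with no minimum, 0.12 with the muscle covariate and 0.13 to 0.18 with 1 sample left out. That of the basement-membrane chains, 0.03 above all genes, was 0.18 with a minimum of 5 TPM and -0.0047 to 0.074 with 1 sample left out, and that of the other collagens -0.015 with no minimum, 0.13 at 5 TPM, 0.14 with sample weights and 0.10 to 0.22 with 1 sample left out. Signs turned for Col5a1 (-0.051 with median-of-ratios scaling and with quantile normalization, -0.028 to 0.18 with 1 sample left out), Col4a5 (0.085 with the muscle covariate, -0.080 to 0.036), Col13a1 (-0.13 to 0.0056) and the ratio of Col4a1 to Col4a2 (-0.025 to 0.097). With the table's numbers as a replicate block, 0 genes were higher and 0 lower (2622 and 448 at an unadjusted p under 0.05), and 0 collagens passed. Deviations of same-numbered samples correlated at -0.0096, -0.25 and -0.07, and no sample correlated best with its own number. With 3 samples per group this cannot show whether equal numbers stand for a shared litter or batch, and no label says so. The causes were not tested. Unknown depth limits all values near 1 TPM.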
